A study of Mus musculus with 5 samples.

Results

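Cytosolic ribosomal protein genes encode the protein components of the ribosome, the particle that translates mRNA in the cytoplasm. The set described here is the 49 rows of the deposited count table, of 56748 genes in all, that are protein-coding and carry a name on a fixed list of such genes. Of these, 28 encode proteins of the large subunit and 21 proteins of the small subunit. All 49 passed the filter on low counts. The rule itself uses no measured value, although the list was drawn up with earlier results of these data known. It is not the whole family: 31 further cytosolic ribosomal protein genes are compared with it below.

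Each ribosome holds a small subunit, which binds the mRNA and reads its codons, and a large subunit, which joins the amino acids and carries the tunnel through which the new protein leaves. Most subunit proteins are present once per ribosome, so cells make them in balance, and many of their mRNAs begin with a tract of pyrimidines (C or U) through which the kinase mTOR and the protein LARP1 control their translation.

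The RNA came from brain cells positive for CD11b, an integrin of microglia and other myeloid cells, of 5 mice aged 7 months, with the cerebellum taken out, although the sample descriptions speak of brain tissue. Of these mice, 2 were 5xFAD mice (replicates 1 and 3), a transgenic line in which the Thy1 promoter drives expression in neurons and which develops amyloid plaques. The other 3 were 5xFAD/Cd5l tg/wt mice (replicates 1, 2 and 3), called Cd5l-transgenic here, which carry the same 5xFAD transgenes and 1 further transgene that expresses mouse Cd5l, a macrophage scavenger-receptor protein, from the human PDGF-B promoter, a promoter often used for expression in neurons. Wild-type mice were not analysed here. The comparison asks how forced Cd5l expression went with gene expression in these cells.

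Library totals ran from 30798377 to 34794617 counts. Cd5l had 45 and 9 counts in the 5xFAD libraries and 6438 to 10680 counts in the Cd5l-transgenic ones, as labelled. All 10 microglial markers were tested, including Itgam, which encodes CD11b, and they summed to 24330 to 26540 CPM (counts scaled to a common library size) per library. A library of each genotype stood apart in markers of other cell types. The 9 choroid plexus and ependymal markers, led by Ttr, reached a sum of 2833 CPM in 5xFAD replicate 3. Their sum was 448 CPM in replicate 1 of that genotype and 263.9 to 541.3 CPM in the Cd5l-transgenic libraries. The 8 oligodendrocyte markers summed to 4236 CPM in Cd5l-transgenic replicate 2, to 1076 CPM in Cd5l-transgenic replicate 1 and to 338.6 to 366.8 CPM in the others. Cd5l-transgenic replicate 2 was also the highest in endothelial (1276 CPM against 608.3 to 728.5) and erythroid markers. The erythroid sums were 2.404 and 1.466 CPM in 5xFAD and 7.397, 20.74 and 8.527 CPM in Cd5l-transgenic replicates 1, 2 and 3, without overlap. The 8 neutrophil markers summed to 56.01 and 74.65 CPM in 5xFAD and to 192.7, 148.9 and 72.21 CPM in the Cd5l-transgenic libraries. CPM values are scaled by TMM, the trimmed mean of M-values, throughout.

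The start sites of several members are shown first, since the pyrimidine tract is the feature of these mRNAs for which they are best known. RefSeq lists promoters (250 bases before to 50 bases from the start site, GRCm38.p6) for 40 of the 49 members. Each line below gives 15 bases before and 15 bases from a listed start site, 5′ to 3′ on the strand of the gene, with the run of C or T that touches the start site (within 5 bases on either side) in capitals. Rps27 and Rps24 are shown because they were the members whose libraries did not overlap between the genotypes, Rpl15, Rpl35, Rps6 and Rps18 for their long runs, and Rps4x and Rpl24 for their short ones.
Rps27 (chr3:90213634-90213663, minus strand): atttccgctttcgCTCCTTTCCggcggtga
Rps24 (chr14:24490663-24490692, plus strand): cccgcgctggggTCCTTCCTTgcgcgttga
Rpl15 (chr14:18270972-18271001, minus strand): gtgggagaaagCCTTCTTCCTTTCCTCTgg
Rpl35 (chr2:39005117-39005146, minus strand): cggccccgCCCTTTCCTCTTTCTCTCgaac
Rps6 (chr4:86857353-86857382, minus strand): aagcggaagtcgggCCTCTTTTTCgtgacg
Rps18 (chr17:33955651-33955680, minus strand): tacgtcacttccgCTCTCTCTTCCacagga
Rps4x (chrX:102189377-102189406, minus strand): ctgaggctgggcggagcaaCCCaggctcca
Rpl24 (chr16:55966260-55966289, plus strand): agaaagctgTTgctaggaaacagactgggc

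A run of at least 8 such bases was found at 15 of the 40 members (37.5%), against 11.0% of the 27025 genes with a listed promoter. A gene with several start sites was represented by the one with the longest run. By subunit a run of at least 8 was found at 10 of 22 large subunit and 5 of 18 small subunit members. The median run was 5 bases over the members and 4 over all genes with a listed promoter. Rps24 has a further listed start site, not shown, with a run of 2. A start site annotated a few bases off would break a run, so these shares describe the listed sites only.

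The motif CCGGAAG, which ETS-family factors such as GABP bind, was searched on both strands over the whole promoter, and a gene was counted if any of its listed start sites had a match. It occurred at 16 of the 40 members (40%) and at 9.9% of all genes with a promoter. Only at the start site with the longest run, it occurred at 15 members (37.5%) and at 9.0% of all genes. The motif GGGCGG, the core of the Sp1 site, occurred at 23 members (57.5%) and at 38.2% of all genes. The motif AAGATGGCG, the core of the YY1 site, occurred at 1 member (2.5%), Rps27, and at 1.6% of all genes. The 250 bases before the start sites of Rps21, with both of its CCGGAAG matches in capitals, and of Rps27, with its AAGATGGCG match in capitals, show what these promoters look like.
Rps21 (chr2:180257129-180257378, plus strand): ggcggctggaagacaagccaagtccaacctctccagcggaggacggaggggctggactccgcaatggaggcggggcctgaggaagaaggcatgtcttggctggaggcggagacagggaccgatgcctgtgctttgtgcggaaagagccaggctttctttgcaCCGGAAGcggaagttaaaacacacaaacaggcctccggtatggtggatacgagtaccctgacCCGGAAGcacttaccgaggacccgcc
Rps27 (chr3:90213649-90213898, minus strand): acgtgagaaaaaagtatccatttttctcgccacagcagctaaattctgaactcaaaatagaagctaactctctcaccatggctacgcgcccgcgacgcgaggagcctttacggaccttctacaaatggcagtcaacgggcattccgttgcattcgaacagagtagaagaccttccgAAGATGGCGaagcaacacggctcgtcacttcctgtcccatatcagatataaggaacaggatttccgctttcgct

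The members were abundant and, per length, at similar levels in the 2 subunits. They took 1.55% to 1.89% of all counts in a library, and 48 of them had between 2553 and 27574 counts in every library. Divided by coding length, the median level over the 5 libraries was 612 CPM per kilobase for the large subunit members and 585 CPM per kilobase for the small subunit members. Rplp1, an acidic protein of the stalk that recruits translation factors, had the highest level at 2051 CPM per kilobase, followed by Rps29, a zinc-binding protein of the small subunit head, at 1949. Both have short coding sequences (342 and 168 bases), and reads from untranslated regions raise a level per coding length most in short genes. Rps24, Rpl10 and Rps9 came next, at 1160, 1132 and 1073 CPM per kilobase. At the low end stood Rpl15 and Rpl27 of the large subunit (297 and 344 CPM per kilobase) and Rps7 and Rps13 of the small subunit (419 and 432). These levels leave out pseudogene copies, described below. For Rps7 the copies held 26.2% of the summed counts of gene and copies, and for Rpl15, Rpl27 and Rps13 2.53%, 3.05% and 2.74%. Rpl24 lay far below all others, at 2.44 CPM per kilobase, and is taken up further on.

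In sum, the ribosomal protein mRNAs differed more between the 2 mice of 5xFAD than between the means of the genotypes. The 49 members summed to 18770 and 15180 CPM in 5xFAD replicates 1 and 3, and to 18810, 17950 and 16550 CPM in Cd5l-transgenic replicates 1, 2 and 3. All 3 transgenic libraries lay above 5xFAD replicate 3, and only replicate 1 of them lay above 5xFAD replicate 1, so the genotypes overlapped. Scaled by library totals alone, the sums were 17880 and 15470 CPM for 5xFAD and 18910, 18280 and 16650 CPM for the transgenic mice, and replicates 1 and 2 of the latter exceeded 5xFAD replicate 1. Their mean over the 5xFAD mice was 16970 ± 2543 CPM (SD, n = 2). The transgenic mice averaged 17770 ± 1140 CPM (SD, n = 3), 1.05 times as much. Between the 5xFAD mice the ratio was 1.24. This is a ratio of single mice, while averaging narrows a ratio of means. In bulk samples, fewer cells with much of this RNA and less of it per cell cannot be told apart.

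Both subunits had their lowest sum in 5xFAD replicate 3. The large subunit members summed to 10860 and 8956 CPM in 5xFAD and to 10940, 10500 and 9553 CPM in the transgenic libraries. For the small subunit the sums were 7909 and 6220 CPM in the 5xFAD pair, versus 7868, 7443 and 6995 CPM in the transgenic trio. The ratio of 5xFAD replicate 1 to replicate 3 was 1.21 for the large and 1.27 for the small subunit, so the small subunit fell somewhat further behind in replicate 3. The summed counts of large over small subunit members, a ratio that no scaling of libraries changes, were 1.37 and 1.44 in 5xFAD and 1.39, 1.41 and 1.37 with the transgene. The group means of that ratio were 1.41 ± 0.0469 (SD, n = 2) and 1.39 ± 0.0228 (SD, n = 3), a difference smaller than the spread between the 5xFAD mice. The ratio of median rather than summed levels was 0.974 and 0.951 in 5xFAD and 0.827, 0.955 and 0.950 with the transgene. By medians the difference of the means was larger than the spread between the 5xFAD mice, and it rested on transgenic replicate 1, while the others lay close to 5xFAD replicate 3.

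**Figure D1:**
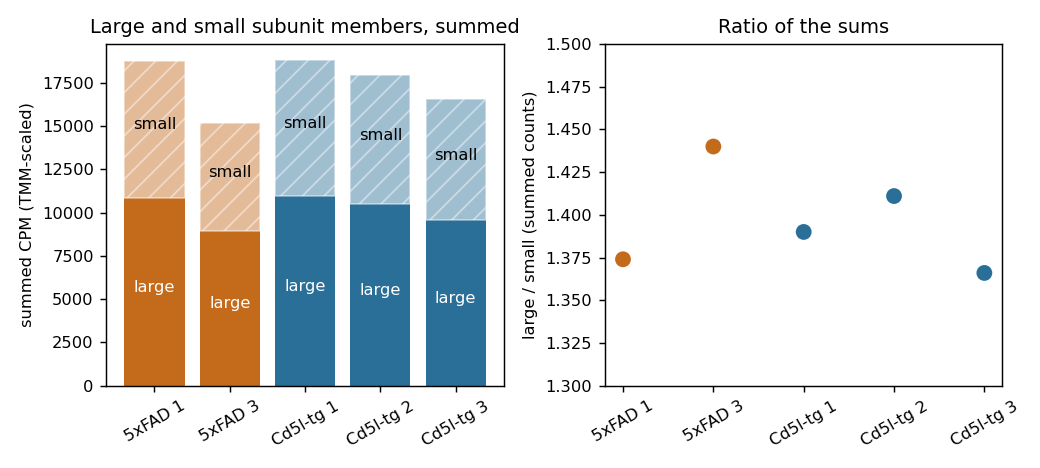
Left, summed TMM-scaled CPM of the 28 large (solid) and 21 small (hatched) subunit members in each library, 5xFAD in orange and Cd5l-transgenic in blue. Right, the ratio of their summed counts on an axis that starts at 1.3, so the distances look large. The lowest sum and the highest ratio (1.44) are both in 5xFAD replicate 3, and the transgenic libraries lie within the range of the 5xFAD libraries except for the sum in transgenic replicate 1 and the ratio in replicate 3.

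The order of the libraries was nearly the same from gene to gene. Of the 49 members, 45 had their lowest value in 5xFAD replicate 3, where that library is the lowest for 16.4% of all tested genes. The highest value lay in Cd5l-transgenic replicate 1 for 29 members (14.6% of all tested genes) and in 5xFAD replicate 1 for 17 (24.1%). The remaining 3 members peaked in transgenic replicate 2 (21.2%), and 0 peaked in 5xFAD replicate 3 (21.3%) or transgenic replicate 3 (18.8%). Transgenic replicate 3 was the lowest library for 3 members (19.1%) and transgenic replicate 1 for 1 (15.3%). Measured as log2 CPM minus the mean of the gene over the libraries, the median member stood at 0.11 and -0.20 in 5xFAD replicates 1 and 3 and at 0.13, 0.05 and -0.07 in transgenic replicates 1, 2 and 3. In 5xFAD replicate 3 the median was -0.18 for the large and -0.29 for the small subunit. The genes that did not have their lowest value there were Rpl24, Rpl30, Rps28 and Rps29.

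**Figure D2:**
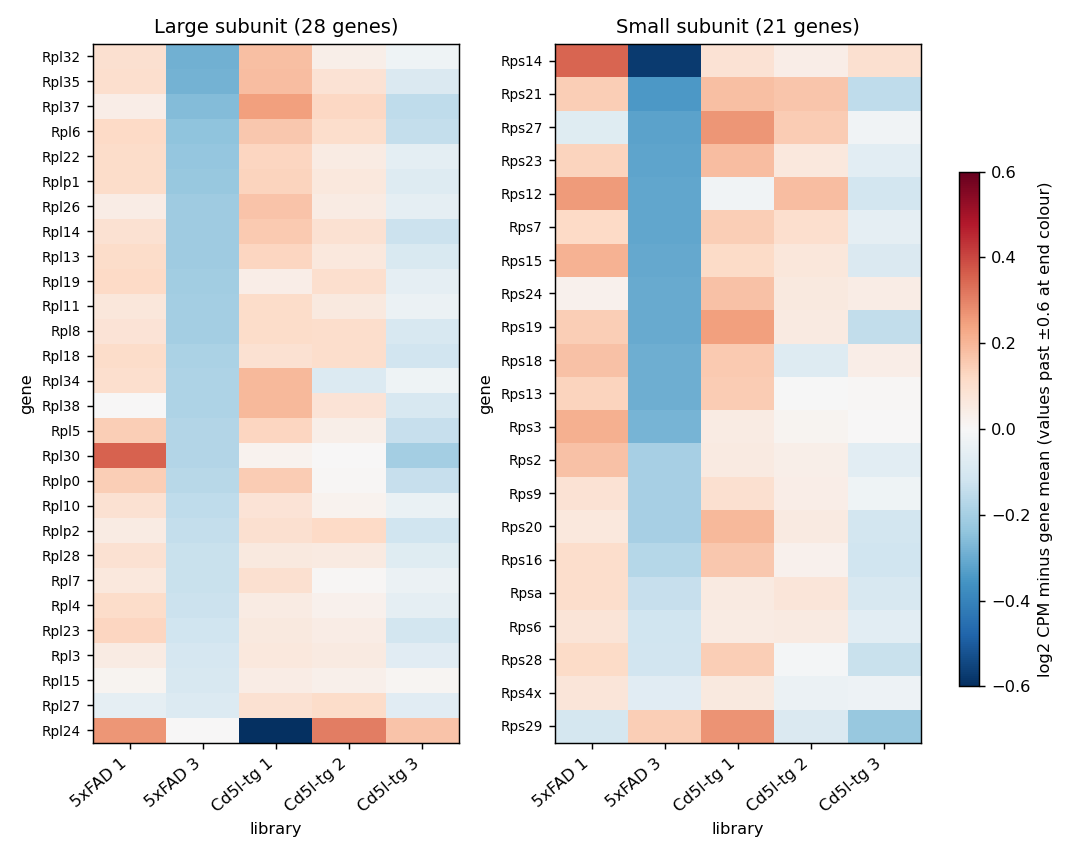
Log2 CPM (with 0.5 added) minus the mean of each gene over the 5 libraries, for the large (left) and small (right) subunit members, 1 row per gene and 1 column per library, with genes ordered by their value in 5xFAD replicate 3. The second column is blue for nearly every gene, with Rps14 the lowest of all, while Rps29 and Rpl24 break the pattern.

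Between the genotypes, no member passed the test. With the edgeR quasi-likelihood test and Benjamini-Hochberg adjustment over 17724 tested genes, 0 of the 49 members were called, where the share called among all tested genes was 0 as well. Those tests did not call Cd5l either, so a count of 0 does not show that values were equal. At an unadjusted p under 0.05, 1 member was higher (Rps27) and 0 were lower, against 1.22% and 1.46% of all tested genes, or 2.67% in either direction. DESeq2 and limma-voom also called 0 members. The log2 fold change (Cd5l-transgenic minus 5xFAD) was above 0 for 44 members (89.8%) and below 0 for 5, where 42.9% of all tested genes lay above 0. Its median was 0.08 over the members and -0.03 over all tested genes. The medians were 0.07 for the large and 0.08 for the small subunit, and 39 of the 49 values were smaller than their own standard error. For 47 of the 49 members the 2 libraries of 5xFAD differed by more CPM than the means of the genotypes did. Single libraries tend to differ more than means of several do, even where genotypes are alike. The share of all tested genes was not computed for this count or for the 39.

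The stalk of the large subunit, formed by Rplp0 with pairs of Rplp1 and Rplp2, recruits and activates the translational GTPases. Rplp0, the base of the stalk, stood at 797 and 641.7 CPM in the 5xFAD pair, versus 800.6, 723.6 and 653.8 CPM in the transgenic trio. Rplp1 stood at 753.8 and 596 CPM against 765.6, 730.7 and 662 CPM. For Rplp2 the values were 285.6 and 249.2 CPM against 295.1, 299.1 and 253.3 CPM. In each of them the transgenic values overlapped the 5xFAD range, and the log2 fold changes were 0.01, 0.09 and 0.08 with standard errors of 0.14, 0.13 and 0.11.

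Rpl5 and Rpl11 bind the 5S ribosomal RNA and, when not built into ribosomes, bind MDM2 and so stabilise p53. Rpl5 had 643.1 and 513 CPM in the 5xFAD pair, versus 634.9, 594.2 and 526.5 CPM in the transgenic trio, entirely within the 5xFAD range (log2 fold change 0.02, SE 0.14). Rpl11 had 288.3 and 238.6 CPM against 296.5, 285.7 and 268.5 CPM (0.11, SE 0.11). The genes of the catalytic core and the P site, where the peptidyl-tRNA sits, all lay near 0: Rpl3, Rpl4, Rpl8, Rpl10 and Rpl15 had log2 fold changes from 0.01 to 0.10. Rpl15 had the smallest standard error of all members, with 183.7 and 169.9 CPM in the 5xFAD pair, versus 187.4, 185.6 and 183.3 CPM in the transgenic trio (log2 fold change 0.07, SE 0.07).

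At the exit of the protein tunnel, Rpl19, Rpl26 and Rpl35 had log2 fold changes of 0.07, 0.14 and 0.14. Among the other 13 large subunit members 12 lay above 0. The highest values of the large subunit were those of Rpl37 (0.19, SE 0.15), Rpl38 (0.15, SE 0.11), a protein known for its part in translating Hox mRNAs, and Rpl32 (0.15, SE 0.14). Rpl37 stood at 215 and 174.6 CPM in the 5xFAD pair, versus 248.1, 228.4 and 188.3 CPM in the transgenic trio, so that transgenic replicate 3 fell between the 5xFAD mice. Rpl23 stood just below 0 (-0.01, SE 0.11), a sign that turned with DESeq2 size factors, upper-quartile factors and library totals. The lowest values belonged to Rpl24 (-0.23, SE 0.55), which had only 14 to 47 counts per library, and Rpl30 (-0.17, SE 0.17). Both proteins lie in bridges between the subunits. Both values rose once pseudogene copies, described below, were added to the counts.

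The 2 largest upward differences of all members lay in the small subunit, in Rps27 and Rps24, and these were the 2 members with every transgenic library above both 5xFAD libraries, where 7.20% of all tested genes were so placed. In 0 members was every transgenic library below both 5xFAD libraries, against 8.68% of all tested genes. With upper-quartile factors 4 members had no overlap upwards (8.42% of all tested genes), and with a filter of 5 CPM in 2 libraries also 4 (9.02%). Rps27, a zinc-finger protein of the platform (ENSMUSG00000090733, chromosome 3, 90119829 to 90120958, GRCm39), stood at 118 and 99.09 CPM in the 5xFAD pair, versus 148.8, 137.8 and 122 CPM in the transgenic trio. The lowest transgenic library lay only slightly above the higher 5xFAD library. The means were 108.5 ± 13.4 CPM (SD, n = 2) and 136.2 ± 13.5 CPM (SD, n = 3). The log2 fold change of Rps27 was 0.33 (SE 0.12), with an unadjusted p of 0.0331 and an adjusted p of 0.999 in edgeR. Rps24, a protein mutated in some cases of Diamond-Blackfan anaemia (ENSMUSG00000025290, chromosome 14, 24537193 to 24547027), stood at 468.2 and 372.7 CPM in the 5xFAD pair, versus 520.5, 479 and 474.4 CPM in the transgenic trio (log2 fold change 0.22, SE 0.12, edgeR adjusted p = 0.999). Here, too, 2 transgenic libraries lay close to 5xFAD replicate 1.

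Other proteins of the body and platform of the small subunit were closer to 0. Rps6, the substrate of the S6 kinases below mTOR, stood at 421 and 366.3 CPM in the 5xFAD pair, versus 412.8, 414.1 and 381.2 CPM in the transgenic trio (0.03, SE 0.10). Rpsa, known also as the laminin receptor, had a log2 fold change of 0.02 and Rps4x one of -0.01, whose sign turned with DESeq2 size factors, upper-quartile factors and library totals. Rps21 and Rps7 both reached 0.15. Of the 9 proteins of the head, which holds the incoming mRNA and tRNAs, 8 lay above 0, from 0.0005 (Rps28) to 0.12 (Rps19, the gene most often mutated in Diamond-Blackfan anaemia).

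**Figure D3:**
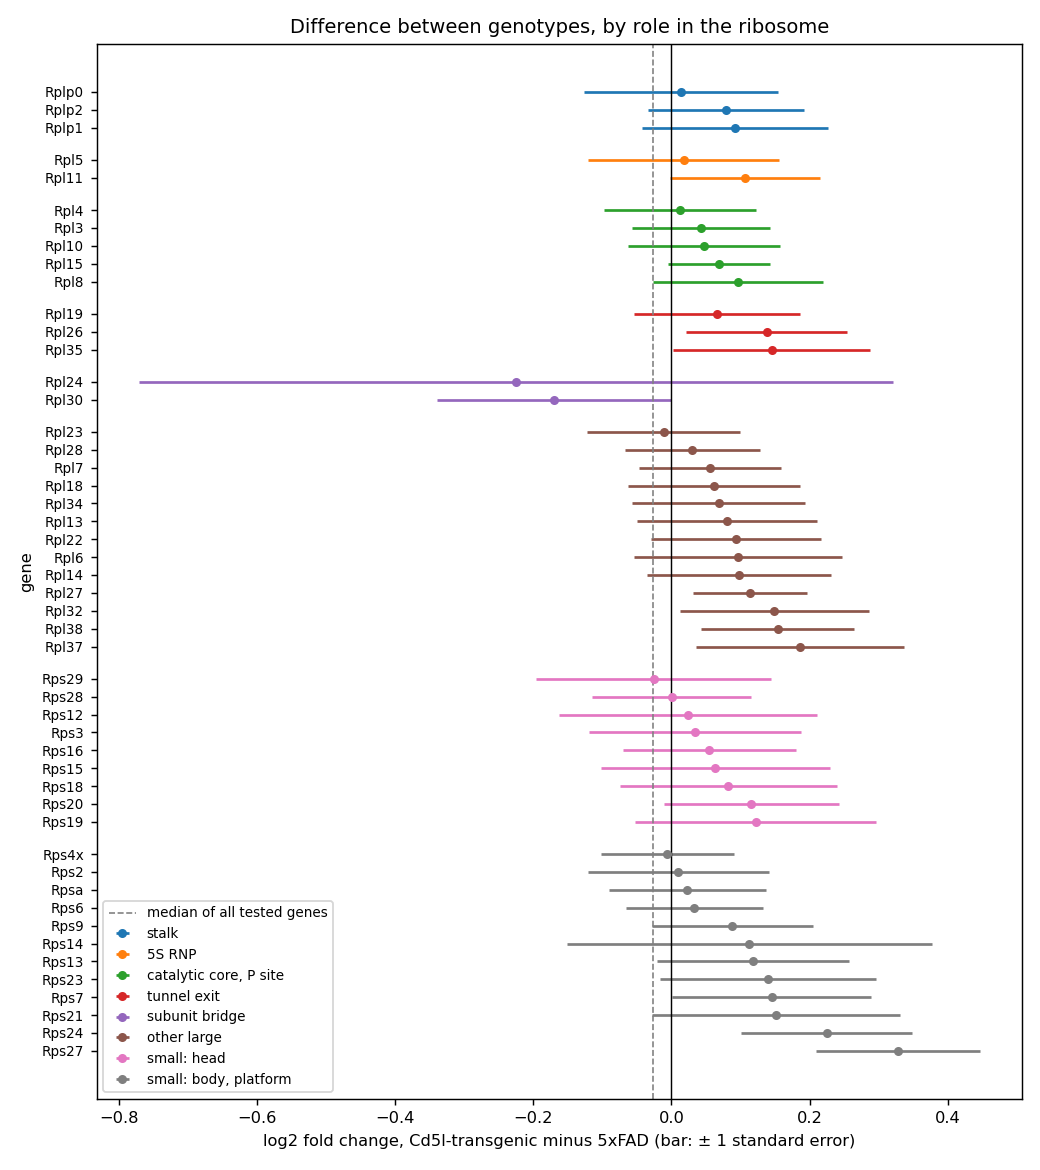
Log2 fold change (Cd5l-transgenic minus 5xFAD) of each of the 49 members with a bar of 1 standard error to either side, grouped by role, from edgeR. The dashed line is the median of all tested genes (-0.03). Most points lie between 0 and 0.20 with bars that reach 0. Rps27 has the largest value, and Rpl24 the widest bar.

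Which 5xFAD mouse served as control set the sign for most members. Against 5xFAD replicate 3 alone (replicate 1 left out), 47 members lay above 0 with a median log2 fold change of 0.25, and every transgenic library was above the control for 45 of them, against 20.5% of all tested genes. Against 5xFAD replicate 1 alone (replicate 3 left out), 41 members lay below 0 with a median of -0.07, and every transgenic library was below the control for 17, against 27.9% of all tested genes. In all, 40 members changed from above to below 0 between these fits, which share the 3 transgenic libraries. The share of all tested genes that changed sign in this way was not computed. The 7 that stayed above 0 in both were Rps27 (0.46 and 0.21), Rps24 (0.40 and 0.07), Rpl37, Rpl38, Rpl26, Rpl27 and Rpl15, a group named after its values were seen. With 5xFAD replicate 3 and transgenic replicate 2 both left out, the median was -0.06. Both remaining transgenic libraries were then below the control for 18 members, against 33.2% of all tested genes. Without transgenic replicate 3, 17 members had both other transgenic libraries above both 5xFAD libraries, against 17.0% of all tested genes. No member passed in the fits with a single 5xFAD library, in which 1 mouse stands for 5xFAD and is taken to vary as the transgenic mice do. The lowest edgeR adjusted p of a member was 0.102, for Rps14 against 5xFAD replicate 3.

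**Figure D4:**
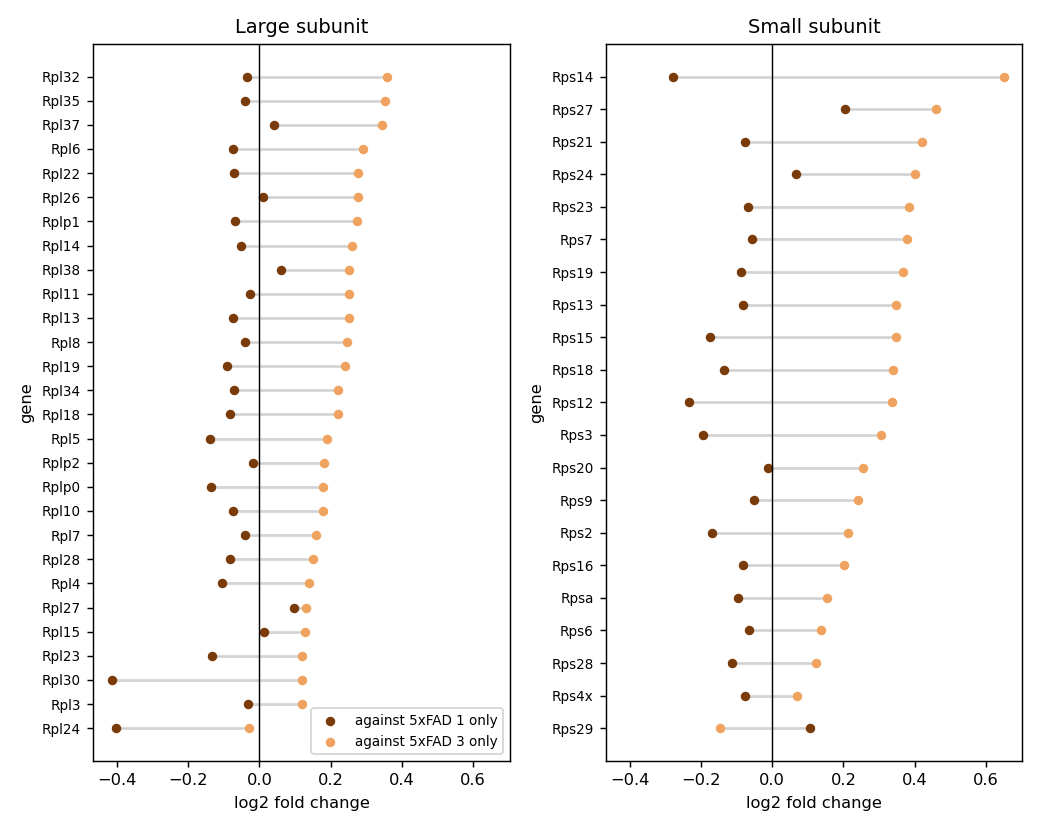
Log2 fold change of each member when 5xFAD replicate 1 (dark) or 5xFAD replicate 3 (light) is the only 5xFAD library, joined by a grey line, for the large (left) and small (right) subunit. Nearly all light points lie to the right of 0 and most dark points to the left. Rps27 and Rps24 stay to the right in both, and Rps29 has the reverse order.

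A few members departed from the shared order of libraries. Rps29 (ENSMUSG00000034892, chromosome 12, 69204496 to 69205960) had 301.8 CPM in 5xFAD replicate 1 but 360.1 CPM in replicate 3. The transgenic trio had 391.8, 306.1 and 277.5 CPM. It was the only member higher in 5xFAD replicate 3 than in replicate 1, and its log2 fold change was -0.03 (SE 0.17). Rps14, a platform protein whose loss is tied to the anaemia of the 5q deletion syndrome in humans, went the other way. Its level was 487 CPM in the first 5xFAD mouse but 256.6 CPM in replicate 3, a 1.90-fold gap. The transgenic trio had 405.9, 392.5 and 407.5 CPM, so the 3 mice were nearly alike. Its log2 fold change was 0.11 (SE 0.26), and it turned to 0.65 against 5xFAD replicate 3 alone and to -0.28 against replicate 1 alone. Rps14 overlaps Ndst1 on the other strand, and no source used here gives the strand setting of the counting.

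Ribosomal protein genes have many processed pseudogenes, copies of the mRNA that were inserted back into the genome, and reads that match gene and copy alike can be counted for either. A search of 1117 pseudogene transcripts found 123 that matched the mRNA of a member at 90% identity or more over at least 80% of the copy, for 43 of the 49 members. The copies took more than 10% of the summed counts of gene and copies for 12 members. For Rpl23 a single copy, Gm9794, held 39.4% of that sum.

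For Rpl30 (ENSMUSG00000058600, chromosome 15, 34440651 to 34443786) the gene and its copies had opposite extremes in 5xFAD replicate 1. The gene had 8854 counts in 5xFAD replicate 1 and 7368 in replicate 3, and 7368, 7507 and 6726 counts in the transgenic libraries. Its 4 copies together had 252 counts in 5xFAD replicate 1, against 1336 in replicate 3 and 1274, 1475 and 1591 with the transgene. So the library highest in the gene was by far the lowest in the copies, mainly in Gm12191 (114 counts against 552 to 694) and Rpl30-ps10 (109 counts against 652 to 802). The part of shared reads in these counts was not tested. With gene and copies summed, the log2 fold change of Rpl30 went from -0.17 to -0.03 (SE 0.12). Summing copies with every member left the median of the members at 0.08 and called 0 of them.

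Rpl24 (ENSMUSG00000098274, chromosome 16, 55786638 to 55791798) was counted at a tiny fraction of the level of the others, with 42 and 39 counts in 5xFAD and 14, 47 and 43 counts with the transgene. Its copies held more, at 135 and 108 counts in 5xFAD and 147, 169 and 121 with the transgene. The long non-coding gene Gm28037 overlaps it on the same strand and had 0 counts in every library. How the authors' counting treated reads shared by overlapping genes is not given, and its part in the value of Rpl24 was not tested. With its copies added, the log2 fold change of Rpl24 was 0.16 (SE 0.26) in place of -0.23.

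Low values in 5xFAD replicate 3 were also found in other genes of the translation machinery, among them factors listed as having pyrimidine-tract mRNAs. Tracts were not checked at the start sites of these further genes. 5xFAD replicate 3 was the lowest library for 16.4% of all tested genes. Of the 31 further cytosolic ribosomal protein genes, 26 had their lowest value in that library, and their median there was -0.18 on the scale of log2 CPM minus the gene mean. Of 15 elongation, initiation and other factors listed as having pyrimidine-tract mRNAs, among them Eef1a1 and Eef2, 12 were lowest there, with a median of -0.14. The median was -0.02 for 28 other initiation factors (10 lowest there), -0.002 for 32 ribosome biogenesis genes (6), 0.06 for 13 measured RNA polymerase I genes (0) and 0.004 for 77 measured mitochondrial ribosomal protein genes (18). The difference between these lists was not tested.

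Between the genotypes, 0 genes of any of these lists passed in edgeR in either direction. The median of all tested genes was -0.03 with TMM and 0.0083 with library totals, so a list median that lies closer to 0 than this shift has no settled direction. Of the 31 further ribosomal protein genes 24 lay above 0, with a median log2 fold change of 0.06. By smallest unadjusted p the genes named from that list are Rpl21 (-0.35, SE 0.18), whose 13 copies held more counts than the gene in every library and with which its value was -0.18 (SE 0.11), and Rpl35a (0.15, SE 0.11), and from the 6 measured paralogs they are Rps4l (0.42, SE 0.20) and Rps27l (0.14, SE 0.13). The 15 factors with pyrimidine-tract mRNAs had a median of 0.02, with Eif3f at 0.05 and Hnrnpa1 at -0.05, and the 28 other initiation factors one of -0.02, with Eif2b4 at -0.13 and Eif2b3 at -0.17.

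Most genes that build ribosomes lay below 0 and did not pass, where 42.9% of all tested genes lay above 0. Of 32 ribosome biogenesis genes 26 lay below 0 (median -0.05), with Sbds, a factor that releases the large subunit for use, at -0.14 (SE 0.09) and the nucleolar protein gene Nop56 at -0.14 (SE 0.09). Of 13 RNA polymerase I genes 12 lay below 0 (median -0.11). Polr1a, the largest subunit of the polymerase that makes ribosomal RNA, stood at 78.83 and 93.59 CPM in the 5xFAD pair, versus 68.83, 65.49 and 66.25 CPM in the transgenic trio. All transgenic libraries were below both 5xFAD libraries, as for 8.68% of all tested genes. The log2 fold change of Polr1a was -0.37 (SE 0.09, edgeR unadjusted p 0.00682, adjusted p = 0.999). Rrn3, its initiation factor, stood at -0.14 (SE 0.08). Of the 13 genes that control pyrimidine-tract mRNAs 9 lay below 0, with Myc at -0.19 (SE 0.08) and Rheb, the activator of mTOR, at -0.15 (SE 0.08). Of 77 mitochondrial ribosomal protein genes 54 lay below 0 (median -0.02), with Mrpl39 at -0.18 and Mrps6 at -0.36. Every transgenic library was below both 5xFAD libraries for 13 of these 77 genes and above both for 2. Those counts were 2 and 0 for the 13 RNA polymerase I genes and 2 and 0 for the 13 control genes. They were 0 and 1 for the 32 ribosome biogenesis genes. Of all tested genes 8.68% lay so below and 7.20% so above.

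Transgenic replicate 3 did not share the low values of the ribosome-building lists. On the scale of log2 CPM minus the gene mean, the median of the RNA polymerase I genes was 0.07 and 0.06 in 5xFAD and -0.10, -0.10 and 0.05 in transgenic replicates 1, 2 and 3. For the ribosome biogenesis genes it was 0.06 and -0.002 in 5xFAD and -0.05, -0.09 and 0.09 in the transgenic libraries. Summed, the 10 immediate-early and heat-shock genes that cell dissociation induces, such as Fos and Jun, had a like order. The sums were 11770 and 11620 CPM for 5xFAD, then 8492, 7614 and 12160 CPM for transgenic replicates 1, 2 and 3. Of the 10 genes, 9 had a log2 fold change below 0. The heat-shock genes Hspa1a and Hspa1b did not follow this order. Both were lowest in 5xFAD replicate 1 (70.03 and 96.51 CPM) and highest in 5xFAD replicate 3 (171.7 and 238.4 CPM). Dusp1 had 1030 CPM in transgenic replicate 1, against 1025 CPM in 5xFAD replicate 1. The part of these 10 genes in the values of the ribosome-building lists was not tested.

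**Figure D5:**
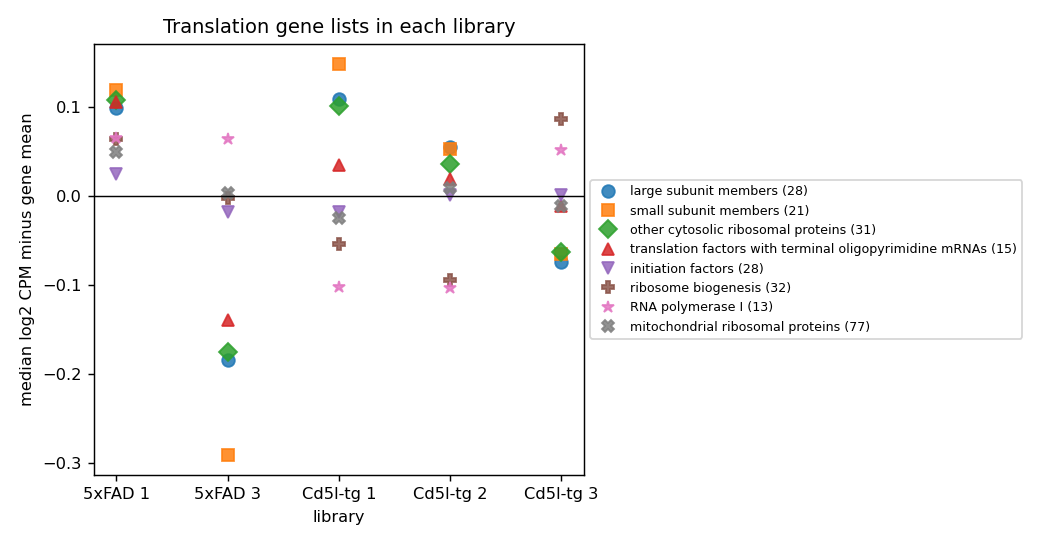
Median over the genes of each list of log2 CPM minus the gene mean, by library, with the number of tested genes in brackets. In 5xFAD replicate 3 the large (-0.18) and small (-0.29) subunit members, the further ribosomal proteins (-0.18) and the factors with pyrimidine-tract mRNAs (-0.14) lie low, while the other lists lie near or above 0.

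Other measures that set 5xFAD replicate 3 apart stand beside these values. All 9 choroid plexus and ependymal markers had their highest value in that library, and none was at 0 in any library. Of 5 nuclear-retained RNAs 4 were highest there, with Malat1 at 1515 CPM there and between 978.9 and 1228 CPM elsewhere. Neat1 was not, at 381.2 CPM there, 519.1 CPM in 5xFAD replicate 1 and 372.7 to 449.3 CPM in the transgenic libraries. Meg3, Snhg11 and Kcnq1ot1 had 17.62 CPM or less in every library. The mitochondrial share of counts was 1.82% there, within the range of 1.24% to 2.05% of the other libraries. Among protein-coding genes outside the ribosomal protein genes and averaging 20 CPM or more, the 441 with a coding length up to 500 bases had a median of -0.05 in 5xFAD replicate 3 and 0.06 in replicate 1, and the 634 with more than 4000 bases had 0.002 and 0.02. The part of these measures in the low ribosomal protein values was not tested.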

How the data were processed

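RNA-seq of 5 libraries of CD11b-positive brain cells was used, 1 per mouse. The authors' deposited values are read counts per Ensembl gene, whole numbers without normalisation, on GRCm39 (mm39) per the submitters' processing notes. Which aligner, counter, annotation and strand option were used was not given in the sources used here. The gene lengths in the deposited table are another column of it and were not used for levels, for which coding lengths of principal transcripts of GENCODE M21 were taken. Table columns carry library names, and for Cd5l-transgenic replicate 3 the letters are swapped in order (ADAB for ABAD).

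Genes were filtered with filterByExpr by group (17724 kept), given TMM factors (0.952 to 1.02), and compared by the quasi-likelihood test of edgeR 4.0.16 in R 4.3.3, with genotype alone in the design, robust settings and Benjamini-Hochberg adjustment over all tested genes (threshold 0.05). The biological coefficient of variation was 0.26. Standard errors are the fold change divided by the root of F. The titles number the mice, which were treated as separate animals. Every pair of libraries differed by more than sampling noise (chi-square per degree of freedom 19.5 to 55.2). Values over the members or a list were described without a test.

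Alternatives were DESeq2 1.42.0 (size factors, Wald test), limma 3.58.1 (voom with sample weights), upper-quartile factors, library totals, TMM without ribosomal protein genes, other filters, a block for replicate number, and fits with libraries left out. Further ones were added after seeing the data: leaving out 5xFAD replicate 3 with Cd5l-transgenic replicate 2, counting motifs at any listed start site, and adding pseudogene copies (members and Rpl21), found with blastn 2.17.0 among pseudogenes with at least 50 counts. The members, lists and rules were chosen with earlier results of these data known. Named members were those highest and lowest in fold change and level in each subunit, those without overlap, the stalk and the 5S RNA proteins, with others named where their role is described; each list named up to 2 genes by smallest unadjusted p. Promoter sequences are from RefSeq (GRCm38.p6), and gene coordinates from the authors' table (GRCm39).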

Additional observations from a re-analysis of the deposited data

How the results depend on the processing

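No member was called under any alternative or with any library left out, where the DESeq2 Wald test called 11 other genes, edgeR 1 with no low-count filter, 9 without 5xFAD replicate 1, 2 without 5xFAD replicate 3, and 98 without both 5xFAD replicate 3 and transgenic replicate 2. The members' median kept its sign except where 5xFAD replicate 3 was left out. The cause of the changes below was not tested. With 1 library left out at a time, the median ranged from -0.073 to 0.25 and the large minus small subunit median from -0.12 to 0.020. Members without overlap ranged from 2 to 45 (higher) and from 0 to 17 (lower). The shares of all tested genes without overlap ranged from 10.9% to 24.5% (higher) and from 12.1% to 27.9% (lower). The large to small ratio ranged from 1.374 to 1.44 (5xFAD) and 1.378 to 1.401 (transgenic). Log2 fold changes that crossed 0 ranged as follows: Rpl10 -0.073 to 0.18, Rpl11 -0.026 to 0.25, Rpl13 -0.073 to 0.25, Rpl23 -0.13 to 0.12, Rpl24 -0.50 to 0.14, Rpl30 -0.41 to 0.12, Rpl32 -0.034 to 0.36, Rpl5 -0.14 to 0.19, Rplp0 -0.14 to 0.18, Rplp1 -0.069 to 0.27, Rplp2 -0.018 to 0.18, Rps13 -0.081 to 0.35, Rps21 -0.077 to 0.42, Rps28 -0.11 to 0.12, Rps29 -0.18 to 0.11, Rps4x -0.077 to 0.069, Rps7 -0.056 to 0.38, Rps9 -0.052 to 0.24. Values crossed 0 with DESeq2 size factors and the DESeq2 Wald test alike (Rpl23 0.0078, Rps4x 0.013), upper-quartile factors (Rpl23 0.0087, Rps4x 0.014), library totals (Rpl23 0.028, Rps29 0.0042, Rps4x 0.031), limma-voom (Rpl23 0.023, Rps29 0.12, Rps4x 0.027), a filter of 5 CPM in 2 libraries (Rpl23 0.023, Rps29 0.0052, Rps4x 0.027) and pseudogene copies added (Rpl24 0.16, Rpl23 0.029, Rpl5 -5e-04). With neither 5xFAD replicate 3 nor transgenic replicate 2 in the fit they were Rpl32 -0.008, Rpl13 -0.076, Rpl10 -0.062, Rplp1 -0.070, Rps29 0.16, Rps28 -0.094, Rps21 -0.12, Rps7 -0.063, Rps13 -0.043, Rps9 -0.044, Rpl5 -0.14, Rpl11 -0.021, Rplp0 -0.12, Rplp2 -0.051. In that fit 18 members had no overlap downwards, against 33.2% of all tested genes. Members without overlap upwards numbered 4 with upper-quartile factors (8.42% of all tested genes) and 4 with the 5 CPM filter (9.02% of all tested genes). By medians over members in place of sums, the large to small ratio was 0.962 (5xFAD) and 0.911 (transgenic). With the replicate number as a block 0 members were called, the median was 0.07, and Rps29 stood at 2e-04 and Rps4x at 0.011. Rpl24, the member with few counts, was at -0.94 with limma-voom, -0.66 with the block and -0.68 with both libraries left out. The labels do not say whether the numbers 1 and 3 pair mice across the genotypes. The differences between replicates 1 and 3 had a correlation of -0.089 between the genotypes across 14359 genes, which are not independent. With 1 such difference per genotype, this cannot tell whether mice of the same number shared a batch. Counts of 2553 or more leave little counting error for every member but Rpl24; the number of mice limits precision.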
